A study of Mus musculus with 8 samples.

Results

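The matrix metalloproteinases (MMPs), the ADAMTS enzymes and the tissue inhibitors of metalloproteinases (TIMPs) were examined as a group in the tongue bud of mouse embryos. Members were taken by gene symbol from probe sets whose platform annotation names exactly 1 gene. Membership uses no measured value, but the group was chosen with earlier results of these data known. They are 37 of the 18193 genes so represented, with 18 MMPs, 15 ADAMTS enzymes and 4 TIMPs carried by 70 probe sets. Each gene is reported from its probe set with the highest mean over the 8 arrays. Mmp15, Mmp21, Mmp25, Mmp27, Mmp28, Adamts2, Adamts13, Adamts14 and Adamts17 were not analysed here.

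Each of the 8 arrays measured RNA of a tongue bud taken at embryonic day 13.5 from C57BL/6J mice. The 4 control buds had the genotype Alk5 fl/fl, and the 4 mutant buds had Alk5 fl/fl together with Wnt1-Cre, so both groups share the floxed allele of Alk5. Alk5 is the type I receptor of TGF-beta, with the gene symbol Tgfbr1. The Wnt1 promoter drives Cre in the neural crest, from which the mesenchyme of the bud derives. The muscle precursors, the endothelium of the vessels and the epithelium of the bud come from other lineages and keep the receptor. No bud carried Wnt1-Cre without the floxed allele, so the transgene and the loss of Alk5 cannot be told apart. The embryos' sex was not determined per the labels, and nothing says that each bud came from a separate litter, so p-values measure the spread between these samples only. Tgfbr1 itself read 12.03, 12.12, 11.97 and 11.89 on the controls and 12.42, 12.42, 12.37 and 12.36 on the mutants. It was higher, not lower, in the arrays labelled mutant, by 0.39 on the log2 scale (SE 0.058, limma adjusted p = 0.00342), and its other probe sets were higher by 0.82 and 0.52. Where these probes lie relative to the deleted part is not given here, so Tgfbr1 does not bear the labels out. Control and mutant below mean the arrays so labelled, and every direction rests on those labels. The arrays had median log2 values of 5.96 to 6.01. Control 1 and mutant 1 lay at opposite ends of the second principal component (18.17 and −15.23), and control 3 was the only array with low Y-linked signal. The mean over 3 Y-linked genes was 3.09 on control 3 and 8.44 to 8.73 on all others, the 4 mutants among them. Read as sex, control 3 was the only female sample, so the groups were unbalanced for sex. Every fit was repeated without each array in turn and without controls 1 and 3 together, and values from these fits stand beside several of the results.

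MMPs are zinc-dependent enzymes that are made as inactive precursors and cleave collagens, elastin, laminins and many cell surface proteins. ADAMTS enzymes are secreted relatives with thrombospondin repeats. Some cut the large proteoglycans versican and aggrecan, others trim the N-propeptides of procollagens. TIMPs bind the active site of these enzymes and block it, each with its own preference, and TIMP2 also takes part in the activation of pro-MMP2 at the cell surface by MMP14. In developing mesenchyme this system remodels the versican-rich and collagenous matrix through which muscle precursors move and in which tendons and fascia form.

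Of the 37 members, 5 passed an adjusted p of 0.05 (limma, Benjamini-Hochberg over all 18193 genes). Adamts8, Adamts5 and Timp2 were lower in the arrays labelled mutant, and Adamts3 and Timp1 were higher. The share called was 13.5% of the members, beside 9.72% of all genes. By direction it was 8.11% of the members lower, beside 5.52% of all genes, and 5.41% higher, beside 4.20%. All 5 called members lay above the median of all probe sets, as did 25 of the 37 members. Among all genes 12150 lay above it, of which 13.1% were called, while 3% of the dimmer genes were. In 4 members all mutant values lay below all control values and in 3 they lay above, which is 10.8% and 8.11% of the members, beside 8.87% and 8.92% of all genes. The median log2 difference over the members, mutant minus control, was −0.06, and over all genes it was −0.01.

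**Figure D1:**
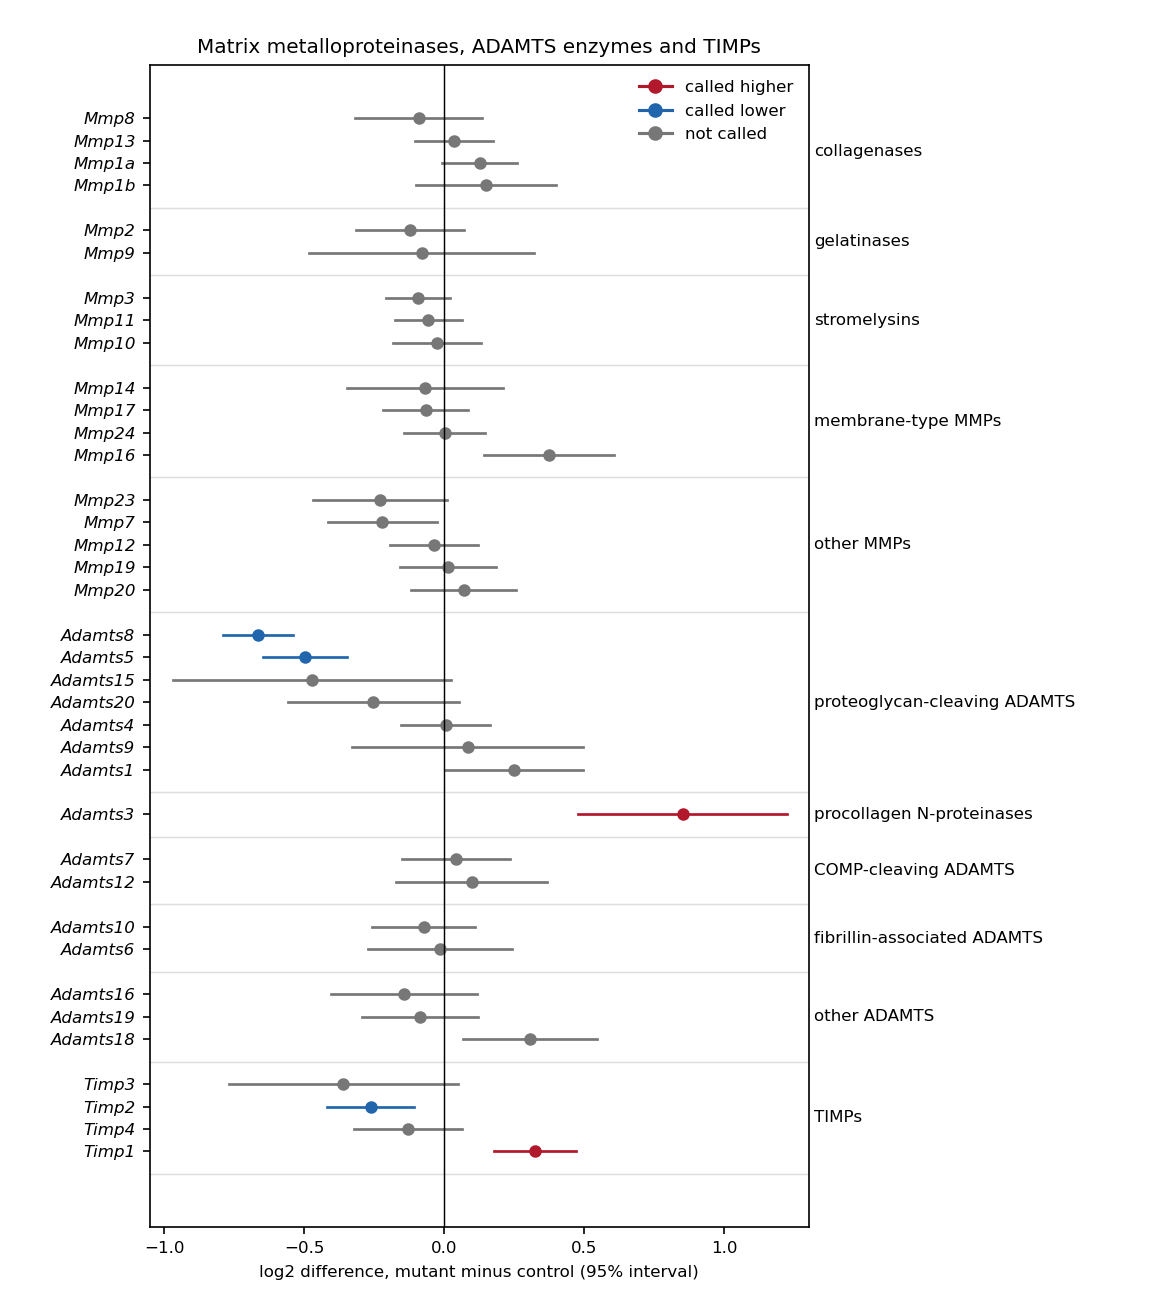
The log2 difference, mutant minus control, of each of the 37 members (x axis), grouped by class, with the unadjusted 95% interval of the difference from limma as a bar. The 2 called-higher members, Adamts3 and Timp1, are red, the 3 called-lower members, Adamts8, Adamts5 and Timp2, are blue, and all 18 MMPs are grey, as not called.

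**Figure D2:**
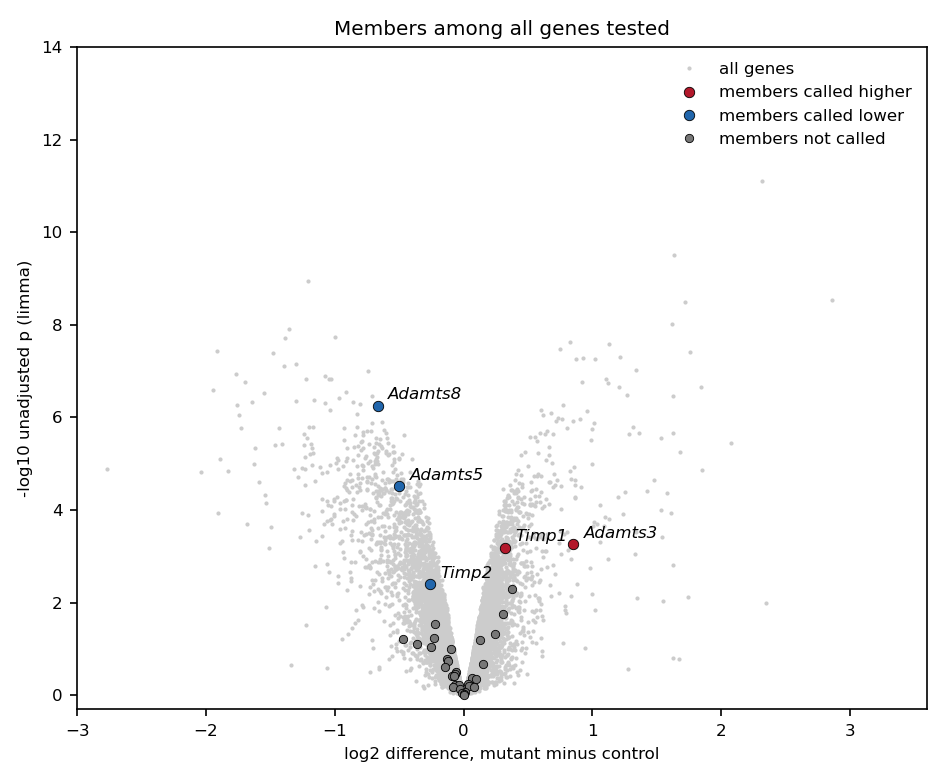
The log2 difference (x axis) against −log10 of the unadjusted limma p (y axis) for all 18193 genes as small grey points, with the 37 members drawn larger. The 5 called members are named, and Adamts8 has the smallest p among the members.

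Markers of several cell types differed between the groups on these arrays. The counts below stand beside 5.52% of all genes called lower and 4.20% called higher. Among all single genes, 8.87% had every mutant value below the controls and 8.92% had every one above. Of 10 skeletal muscle markers 7 were lower in the mutants, with a list mean per array of 10.51 to 10.83 in controls and 9.67 to 10.02 in mutants. Macrophage markers were lower in 3 of 10 cases, with list means of 7.45 to 7.57 and 7.00 to 7.44. Endothelial markers were higher in 3 of 8 cases, with list means of 7.94 to 8.04 and 8.14 to 8.47. Schwann cell and glial markers were lower in 2 of 4 cases (8.60 to 8.97 and 8.20 to 8.57), neuronal markers lower in 4 and higher in 2 of 8 (7.39 to 7.61 and 7.21 to 7.34), and osteoclast markers lower in 1 of 6 (5.29 to 5.48 and 5.06 to 5.24). That osteoclast marker was Calcr at −0.96. The other 5 differed by −0.16 to 0.05 and did not pass, and 5 of the 6 lay below the median of all probe sets. List means of tendon, smooth muscle and pericyte, cartilage, bone, epithelial and mesenchyme markers overlapped between the groups, with 2 of 5, 2 of 8, 0 of 8, 1 of 5, 1 of 9 and 0 of 8 genes lower and 1 cartilage and 1 mesenchyme marker higher. The part of these cell types in the members' differences was not tested, and in a whole bud fewer cells of a type and less RNA per cell cannot be told apart.

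The proteoglycan-cleaving ADAMTS enzymes held the 2 ADAMTS enzymes that were called lower. Of 7 measured, Adamts5 and Adamts8 fell, and Adamts1, Adamts4, Adamts9, Adamts15 and Adamts20 did not pass. The share called was 28.6%, beside 9.72% of all genes. Among genes above the median of all probe sets, where all 7 lay, it was 13.1%. Adamts8 encodes a secreted enzyme of the aggrecanase group. In log2 units it measured 6.77, 6.67, 6.83 and 6.66 over the control buds 1 to 4, and 6.00, 6.11, 6.11 and 6.04 over mutant buds 1 to 4. The groups were far apart for their spread, with means of 6.73 ± 0.08 and 6.07 ± 0.05 (SD, n = 4 each). The log2 difference of −0.67 (SE 0.056, limma adjusted p = 0.000204) is a level 1.59-fold lower in the mutants, measured by the single probe set 1418270_at. The difference ran from −0.69 to −0.60 over all 16 alternative settings, with an adjusted p of at most 0.00459. With a single probe set, the settings that average or leave out probe sets could not change this difference.

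Adamts5 encodes an enzyme that cuts both versican and aggrecan. It read 8.89, 8.83, 8.82 and 8.83 over the control buds 1 to 4, and 8.41, 8.39, 8.15 and 8.42 over mutant buds 1 to 4. Every mutant array lay below every control array, and mutant 3 lay below the other mutants. The group means of 8.84 ± 0.03 and 8.34 ± 0.13 (SD, n = 4 each) gave a log2 difference of −0.50 (SE 0.067, adjusted p = 0.0021) and a 1.41-fold lower level in the mutants. Of the 4 probe sets for Adamts5, 3 were lower in the mutants past an adjusted p of 0.05 over all probe sets. They gave −0.50 for 1456404_at, −0.51 for 1450658_at and −0.37 for 1422561_at. The other, 1456969_at, read 3.08 in controls and 3.03 in mutants, near the lowest values of the arrays. Without mutant 3 the difference was −0.43, and the call held in all 16 alternative settings.

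The other proteoglycan-cleaving enzymes did not move one way. Adamts15 read 9.02, 9.73, 9.73 and 9.45 on the controls and 9.60, 9.00, 8.62 and 8.81 on the mutants, so control 1 fell among the mutants and mutant 1 among the controls. Its log2 difference of −0.47 was nearly as large as that of Adamts5, but its SE was 0.220 and its 95% interval ran from −0.97 to 0.02 (adjusted p = 0.232). Adamts20, whose loss in mice is known for white belt spotting, differed by −0.25 (SE 0.136, adjusted p = 0.298) with overlapping groups. That value was −0.15 without control 1, −0.17 without mutant 4 and −0.05 without controls 1 and 3. Adamts1, an enzyme that cuts versican in heart and ovary, differed by 0.25 (SE 0.109, adjusted p = 0.206), with mutants 1 and 2 at 9.79 and 9.55 and all other arrays between 9.19 and 9.29, and by 0.14 without mutant 1. Adamts9, another versicanase, differed by 0.08 with an interval of −0.33 to 0.50, and Adamts4, an aggrecanase, by 0.01 with an interval of −0.15 to 0.16. The interval of Adamts4 does not reach the difference of Adamts5 or Adamts8.

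Adamts3 was the member with the largest difference. It encodes a procollagen N-proteinase, which trims the N-propeptide of fibrillar procollagen and is also known to process the lymphatic growth factor VEGF-C. The log2 value was 5.89, 6.21, 6.22 and 5.65 over the control buds 1 to 4, and 7.26, 6.83, 6.61 and 6.66 over mutant buds 1 to 4. All mutants lay above all controls, and mutant 1 was the highest array. The controls averaged 5.99 ± 0.27 and the mutants 6.84 ± 0.30 (SD, n = 4 each), which is a log2 difference of 0.85 (SE 0.166, adjusted p = 0.0119), or 1.80-fold higher in the mutants. The call rests on the probe set 1441693_at. The other probe set for Adamts3, 1458143_at, read lower throughout, at 4.08 in controls and 3.92 in mutants, a difference of −0.16 that did not pass (adjusted p = 0.146). With the mean of both the difference was 0.34 (adjusted p = 0.0534). Over 8 leave-one-out fits the difference ran from 0.71 to 0.93 and the call was kept each time.

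The remaining ADAMTS enzymes did not pass. Adamts18, which encodes an orphan enzyme of eye and lung development, read 7.15, 7.16, 7.12 and 6.92 on the controls and 7.17, 7.33, 7.38 and 7.69 on the mutants. The groups did not overlap, but mutant 1 lay just above control 2, and the difference of 0.31 (SE 0.106) had an adjusted p of 0.111. Adamts7 and Adamts12, which cleave the cartilage and tendon protein COMP, differed by 0.04 and 0.10. Adamts6 and Adamts10, which act on fibrillin microfibrils, differed by −0.02 and −0.07, and Adamts16 and Adamts19 by −0.14 and −0.09. Over the 15 ADAMTS enzymes the median difference was −0.02, with 2 called lower and 1 called higher, or 20% beside 9.72% of all genes. Above the median of all probe sets, where 13 of the 15 lay, 13.1% of genes were called.

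**Figure D3:**
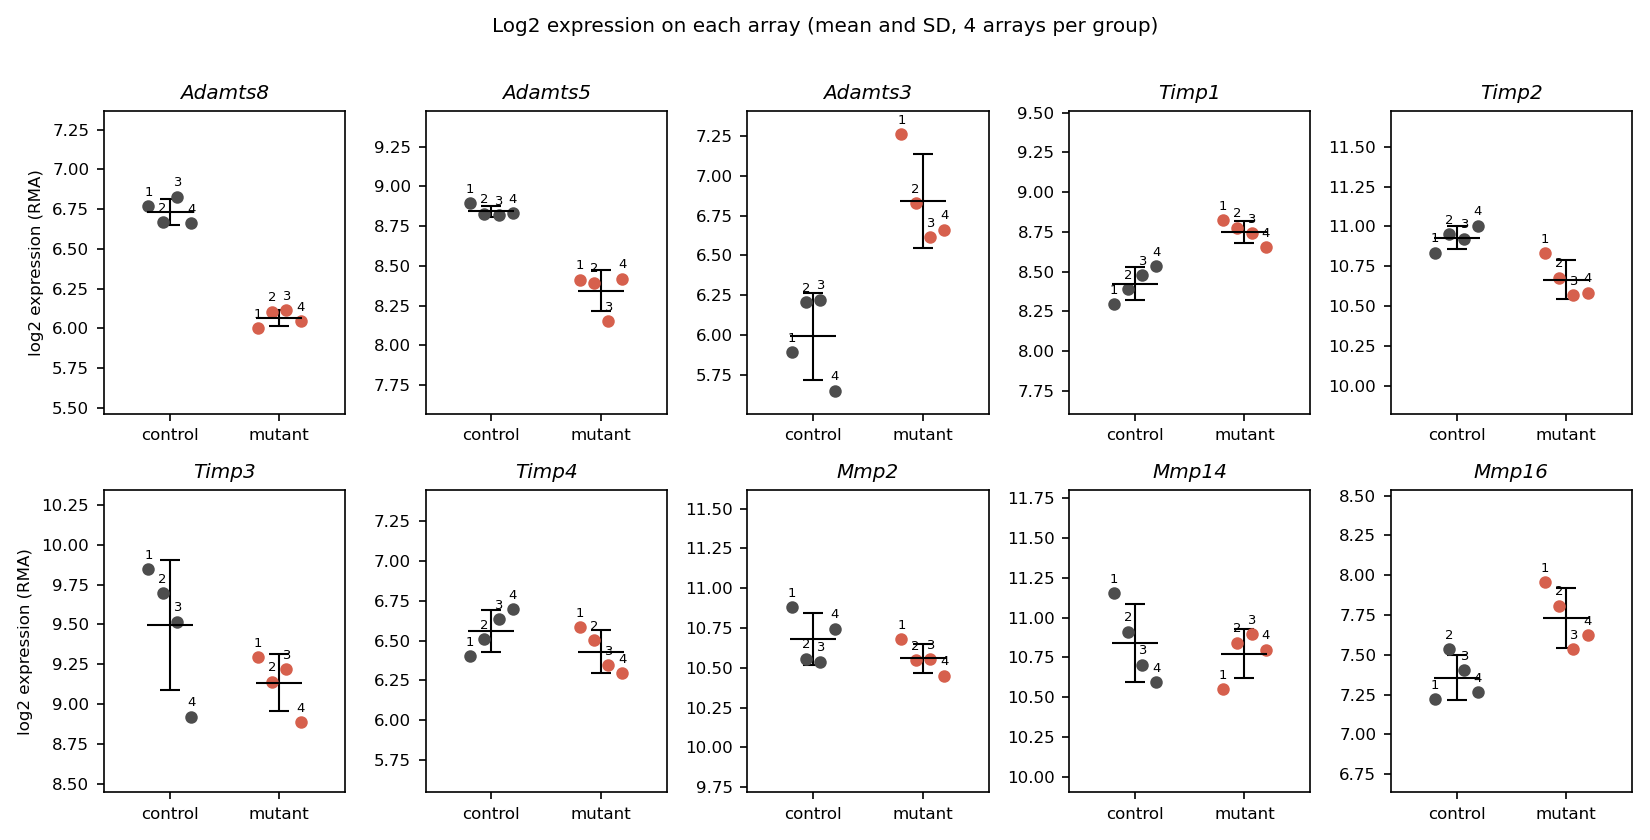
Log2 expression (y axis, the same span of log2 units in each panel) of 10 members on each array, numbered by replicate, with the mean and SD of 4 arrays per group as bars. Adamts8 and Adamts5 lie lower and Adamts3 and Timp1 higher on every mutant array, the nearest Timp2 values of the groups nearly touch, and Timp3, Timp4, Mmp2, Mmp14 and Mmp16 overlap.

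Of the 4 TIMPs, Timp1 rose and Timp2 fell, with a median difference of −0.20 over the 4. The share called was 50%, beside 9.72% of all genes. Among genes above the median of all probe sets, where all 4 lay, it was 13.1%. Timp1, encoding the inducible inhibitor that binds most MMPs, read 8.29, 8.39, 8.48 and 8.54 over the control buds 1 to 4, and 8.82, 8.78, 8.74 and 8.65 over mutant buds 1 to 4. Each mutant array was above each control array. The means of 8.42 ± 0.11 and 8.75 ± 0.07 (SD, n = 4 each) differ by 0.32 on the log2 scale (SE 0.065, adjusted p = 0.0135), a level 1.25-fold higher in the mutants. Its call held in all 8 leave-one-out fits (0.28 to 0.36) and was lost without controls 1 and 3 together (0.29, adjusted p = 0.0645). Timp1 is X-linked, and control 3 alone had a low Y-linked signal, with a mean of 3.09 over 3 Y-linked genes against 8.44 to 8.73 on the others. Without control 3 alone Timp1 differed by 0.34 (adjusted p = 0.0254).

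Timp2, the abundant inhibitor of connective tissue, was called lower, near the threshold. On 1454677_at it read 10.83, 10.95, 10.92 and 11.01 over the control buds 1 to 4, and 10.83, 10.68, 10.57 and 10.58 over mutant buds 1 to 4. Control 1 and mutant 1 differed by less than the second decimal, and the other arrays were well apart. The mean of 10.93 ± 0.07 in controls and 10.67 ± 0.12 in mutants (SD, n = 4 each) gave a log2 difference of −0.26 (SE 0.069, adjusted p = 0.0444) or 1.20-fold. Over the 6 probe sets for Timp2 the differences ran from −0.32 to 0.17. One other set, 1460287_at, passed over all probe sets at −0.32 (adjusted p = 0.0411), where 1454677_at itself stood at an adjusted p of 0.0683. With the mean of all 6 the difference was −0.10 (adjusted p = 0.541). The call was lost in 6 of 8 leave-one-out fits. These dropped control 2 (−0.25), control 3 (−0.26), control 4 (−0.24), mutant 2 (−0.27), mutant 3 (−0.23) or mutant 4 (−0.24). Dropping controls 1 and 3 as a pair also ended it (−0.31, adjusted p = 0.0791).

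Neither Timp3 nor Timp4 passed. Timp3, the inhibitor that binds to the matrix and also blocks ADAMTS5 and ADAM17, read 9.85, 9.70, 9.52 and 8.92 on the controls and 9.29, 9.14, 9.22 and 8.89 on the mutants. Control 4 was low and fell among the mutants. The difference of −0.36 had an SE of 0.182 (adjusted p = 0.27), and without control 4 it was −0.55 (adjusted p = 0.0222). It was −0.17 without controls 1 and 3, and −0.16 with the mean of its 4 probe sets. All 4 probe sets for Timp3 gave differences at or below 0, the largest −0.36, and none passed. Timp4, known from heart and muscle, differed by −0.13 (SE 0.086, adjusted p = 0.408), with overlapping groups, and by −0.08 without control 4 or without mutant 4.

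**Figure D4:**
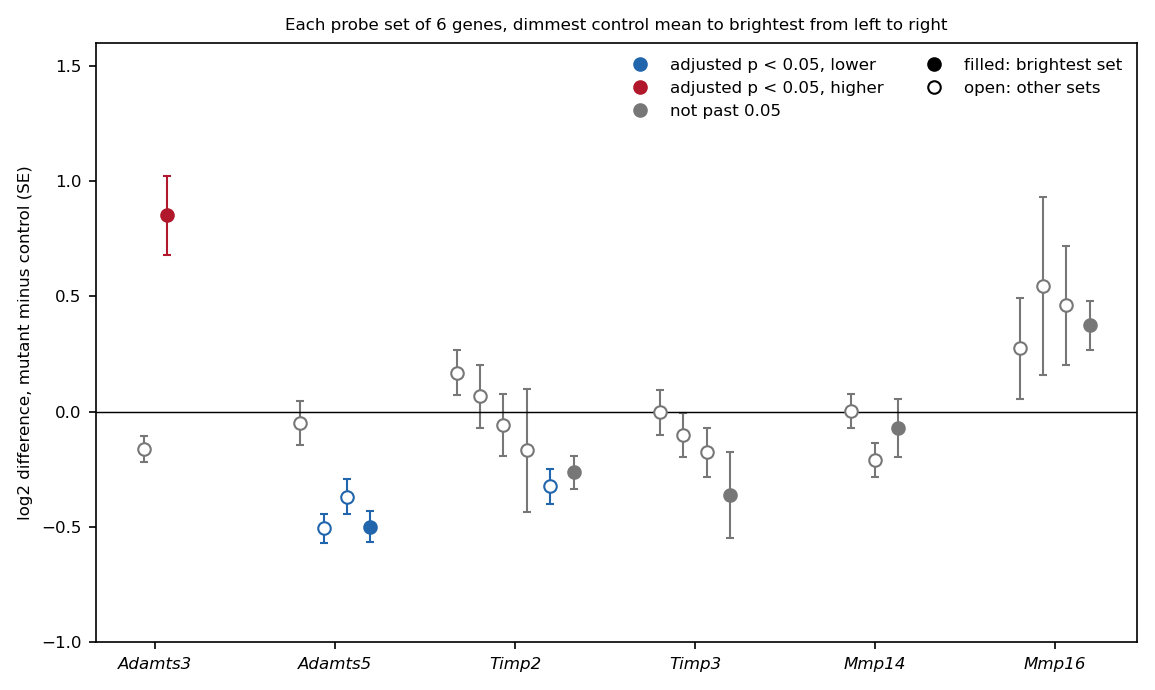
The log2 difference, mutant minus control, with its SE (y axis) for every probe set of Adamts3, Adamts5, Timp2, Timp3, Mmp14 and Mmp16, ordered within a gene from the lowest to the highest control mean. Coloured points passed an adjusted p of 0.05 over all probe sets: 3 of 4 sets for Adamts5, 1 of 2 for Adamts3 and 1 of 6 for Timp2, which is not its brightest set.

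Promoter sequence is shown for the called members that RefSeq (GRCm38.p6) covers here, to set the 2 inhibitors that differed in opposite directions beside each other and beside Adamts3. Of the 37 members 23 had an entry, among them 3 of the 5 called. Each run holds the 250 bases before the annotated start, 5′ to 3′ on the gene's strand, and capitals mark matches on either strand to AGGAAG, a core of ETS factor sites, or CAGAC, the core of Smad-binding elements. The sequences are chrX:20869916-20870165 (plus strand) for Timp1, chr11:118355412-118355661 (minus strand) for Timp2 and chr5:89883335-89883584 (minus strand) for Adamts3.

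Timp1: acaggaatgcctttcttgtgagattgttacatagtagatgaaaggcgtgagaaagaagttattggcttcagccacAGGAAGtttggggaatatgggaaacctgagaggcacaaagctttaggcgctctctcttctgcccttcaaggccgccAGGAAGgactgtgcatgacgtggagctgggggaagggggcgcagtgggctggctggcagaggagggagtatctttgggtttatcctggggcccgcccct
Timp2: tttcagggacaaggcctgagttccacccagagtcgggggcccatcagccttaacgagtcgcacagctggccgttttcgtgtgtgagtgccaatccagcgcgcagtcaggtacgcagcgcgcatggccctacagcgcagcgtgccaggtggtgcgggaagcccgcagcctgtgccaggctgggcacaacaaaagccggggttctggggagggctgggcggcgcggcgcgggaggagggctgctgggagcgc
Adamts3: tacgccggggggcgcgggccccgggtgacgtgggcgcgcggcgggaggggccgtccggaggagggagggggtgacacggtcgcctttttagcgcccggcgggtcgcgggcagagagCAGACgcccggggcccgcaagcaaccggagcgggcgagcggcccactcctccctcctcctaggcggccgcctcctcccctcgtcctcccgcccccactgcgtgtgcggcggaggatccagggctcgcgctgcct

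The Timp1 window held AGGAAG starting at −175 and −99 relative to the start, a motif present in 29.5% of 32851 promoter windows of this length. The Adamts3 window held CAGAC at −134, a motif present in 42.2% of them. Neither motif was found in the Timp2 window, and TGANTCA, the AP-1 site, present in 6.7% of windows, was found in none of the 3. The matches shown do not overlap one another. GC content was 54.4% for Timp1, 68.0% for Timp2 and 78.0% for Adamts3, beside a median of 52.4% over all windows. These matches describe the letters in the windows only.

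No MMP passed. Of 18 measured, 0 were called by limma, 2 (Mmp16 and Mmp7) had an unadjusted p under 0.05, and the median log2 difference was −0.05. Among all genes 9.72% were called. The share was 3% for genes below the median of all probe sets, where 10 of the 18 MMPs lay. Mmp2, gelatinase A, is the collagen IV-cutting enzyme of mesenchyme. It read 10.88, 10.56, 10.54 and 10.74 on the controls and 10.68, 10.55, 10.55 and 10.45 on the mutants, with overlapping groups. Its difference of −0.12 (SE 0.085, adjusted p = 0.431) had a 95% interval of −0.31 to 0.07, and was −0.06 without control 1. Mmp14, the membrane-bound activator of pro-MMP2, read 11.15, 10.91, 10.71 and 10.59 on the controls and 10.55, 10.84, 10.90 and 10.80 on the mutants. The spread of the controls covered nearly all mutant values, and the difference of −0.07 (adjusted p = 0.788) had an interval of −0.35 to 0.21. Over the 8 leave-one-out fits it ran from −0.15 to 0.04. It was 0.04 without control 1, 0.01 without mutant 1 and 0.02 without controls 1 and 3, so its sign depends on which arrays are kept. These values are for the brightest probe set, 1448383_at. Of the other sets for Mmp14, 1440920_at differed by −0.21 (SE 0.073, limma adjusted p = 0.146 over all probe sets) and 1416572_at by 0.003, and neither passed. Of these partners in 1 activation step, Timp2 was the one that passed, near the threshold.

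Mmp16, a membrane-type MMP closely related to Mmp14, came nearest to passing. It read 7.22, 7.53, 7.40 and 7.26 on the controls and 7.96, 7.81, 7.53 and 7.62 on the mutants. Control 2 and mutant 3 met, and the other arrays were apart. The difference of 0.37 (SE 0.103, adjusted p = 0.0515) had an interval of 0.14 to 0.61, and all 4 probe sets for Mmp16 gave positive differences, from 0.28 to 0.55. It passed in 5 of the 16 alternative settings, with the lowest adjusted p of 0.032 under eBayes with trend and robust. Mmp17 and Mmp24, the other membrane-type MMPs, differed by −0.07 and 0.00, with intervals of −0.22 to 0.08 and −0.14 to 0.15.

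Mmp9, gelatinase B, known from macrophages and osteoclasts, read 6.04, 6.50, 6.52 and 6.61 on the controls and 6.84, 6.35, 6.09 and 6.08 on the mutants, so each group spanned most of the other. Its difference of −0.08 had an interval of −0.48 to 0.32, and it ran from −0.25 to 0.01 over the 8 leave-one-out fits, with the sign turning without mutant 3 or mutant 4. It was −0.22 without controls 1 and 3 and −0.01 with the mean of its probe sets. Mmp11, the stromelysin of mesenchyme next to epithelium, differed by −0.06 with the narrower interval of −0.18 to 0.06. Mmp23 differed by −0.23 (SE 0.107, adjusted p = 0.229), with mutant 3 at 7.39 inside the range of the controls. Mmp7, matrilysin, read 5.75 to 6.18 in the controls and 5.66 to 5.72 in the mutants. Its groups did not overlap, but the difference of −0.22 had an adjusted p of 0.153. Without control 4, the highest array, it was −0.13, and its mean lay below the median of all probe sets.

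The 4 genes classed here as interstitial collagenases gave little signal. Such enzymes can open the collagen triple helix, but the other members were not sorted by this ability. Mmp13 read 2.84, 2.85, 2.91 and 2.88 on the controls and 2.80, 3.06, 2.88 and 2.87 on the mutants, near 2.47, the lowest value on any array. Its difference of 0.04 ran from −0.02 without mutant 2 to 0.07 without mutant 1. Mmp1a and Mmp1b lay between 3.00 and 3.78 and Mmp8 between 3.83 and 4.32. Differences over these 4 ran from −0.09 to 0.15, and none passed. Mmp3, Mmp10, Mmp12, Mmp19 and Mmp20 also lay below the median of all probe sets, with differences from −0.09 to 0.07. No detection calls were used, so for these genes neither expression nor its absence is shown.

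The other genes of matrix proteolysis were read from lists assembled by function. Of 30 genes listed as other proteases of the matrix and cell surface, 4 fell and 0 rose, with a median difference of −0.14. The list includes Hpse, which is not a protease. The share called was 13.3%, beside 9.72% of all genes. Among genes above the median of all probe sets, where 25 of the 30 lay, it was 13.1%. Prss35 carries the name of a serine protease, and whether its protein is active was not tested. It read 9.37, 8.88, 8.89 and 8.67 on the controls and 7.96, 7.26, 7.00 and 7.23 on the mutants. All mutants were lower, by 1.59 on the log2 scale as a mean (difference −1.59, SE 0.208, adjusted p = 0.00185), or 3.01-fold. Htra1, a secreted serine protease of the matrix, differed by −0.49 (SE 0.060, adjusted p = 0.00142), and Adam19, a membrane-bound relative of the ADAMTS enzymes, by −0.40 (adjusted p = 0.0166). Hpse, which encodes heparanase and cuts heparan sulphate rather than protein, differed by −0.29 (adjusted p = 0.0241). Adam19 lost its call without control 2 or mutant 4 (−0.44 to −0.35 over 8 leave-one-out fits), and with the mean of its probe sets. Hpse lost it without control 3, control 4, mutant 1, mutant 3 or mutant 4 (−0.32 to −0.24), and without controls 1 and 3 together. The procollagen C-proteinase gene Bmp1 differed by −0.16 and Furin, which activates MMP and ADAMTS precursors, by −0.20, and neither passed (adjusted p = 0.108 and 0.109).

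Among 16 other inhibitors and inactive relatives, 2 rose and 2 fell, which is 25.0% beside 9.72% of all genes, with a median of −0.09. Above the median of all probe sets, where 11 of the 16 lay, 13.1% of genes were called. A2m, encoding the broad protease trap alpha-2-macroglobulin, read 5.96, 6.20, 6.34 and 5.79 on the controls and 7.64, 7.92, 7.50 and 6.93 on the mutants. Every mutant array was higher, and the log2 difference was 1.43 (SE 0.197, adjusted p = 0.00233), or 2.69-fold. Tfpi2, a serine protease inhibitor deposited in matrix, rose by 0.65 (adjusted p = 0.00939), with a control mean of 5.25 below the array medians. Adamtsl3 and Adamtsl2 encode relatives of the ADAMTS enzymes that lack a protease domain. They differed by −0.44 (adjusted p = 0.00626) and −0.30 (adjusted p = 0.0409), and Adamtsl2 was called in a leave-one-out fit only when control 1 was dropped (−0.37 to −0.25 over the 8 fits), and not after repeated quantile normalization. Reck, a membrane-anchored MMP inhibitor, differed by 0.08 and did not pass.

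Substrate genes moved both ways, with 3 of 20 rising and 5 falling, or 40.0% called beside 9.72% of all genes, and a median of −0.13. Above the median of all probe sets, where 16 of the 20 lay, 13.1% of genes were called. Vcan, encoding the versican that ADAMTS5 cleaves, read 10.51, 10.95, 10.58 and 10.81 on the controls and 11.34, 11.58, 11.41 and 11.03 on the mutants. Its arrays did not overlap, in the direction opposite to those of Adamts5, and it rose by 0.63 (SE 0.129, adjusted p = 0.0148), a call lost with the mean of all its probe sets and without controls 1 and 3. Acan, the aggrecan gene, differed by 0.05 and did not pass. Of the fibrillar procollagen genes, Col1a2 differed by −0.42 (adjusted p = 0.00659) and Col5a1 by −0.55 (adjusted p = 0.00334), Col1a1 also fell, by 0.65, and Col3a1 was higher by 0.24, a call lost in all 8 leave-one-out fits (0.21 to 0.27) and after repeated quantile normalization. The others called were Eln at −1.04, Bgn at −0.82 and Lum at 0.58, and Lum lost its call without control 2, control 3 or any 1 of the mutants (0.42 to 0.67), and under eBayes with trend and robust. Without controls 1 and 3 together 0 of the substrate genes were called higher.

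Known regulators of MMP and TIMP genes include the AP-1, ETS and Runx factors, Egr1 and the MMP inducer Bsg. Of the 16 measured, 2 fell and 1 rose, or 18.8% beside 9.72% of all genes, with a median of −0.03. Above the median of all probe sets, where 13 of the 16 lay, 13.1% of genes were called. Fos differed by −0.46 (SE 0.102, adjusted p = 0.0212) and Egr1 by −0.54 (adjusted p = 0.0086), while Ets1 was higher by 0.45 (adjusted p = 0.0222). The call of Ets1 was lost in the fits that dropped control 2, control 4, mutant 2 or mutant 3 (0.38 to 0.52 over the 8 fits), and that of Fos in those that dropped mutant 2 or mutant 4 (−0.53 to −0.39) and in the one without controls 1 and 3. Jun, the partner of Fos in AP-1, differed by 0.19 and did not pass. Of 7 receptors that clear or concentrate proteases at the cell surface, 0 were called by limma, beside 9.72% of all genes. Of the 7, 3 had an unadjusted p under 0.05, among them Lrp1 at 0.29 (adjusted p = 0.0667) and Lrp8 at −0.29 (adjusted p = 0.0632).

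**Figure D5:**
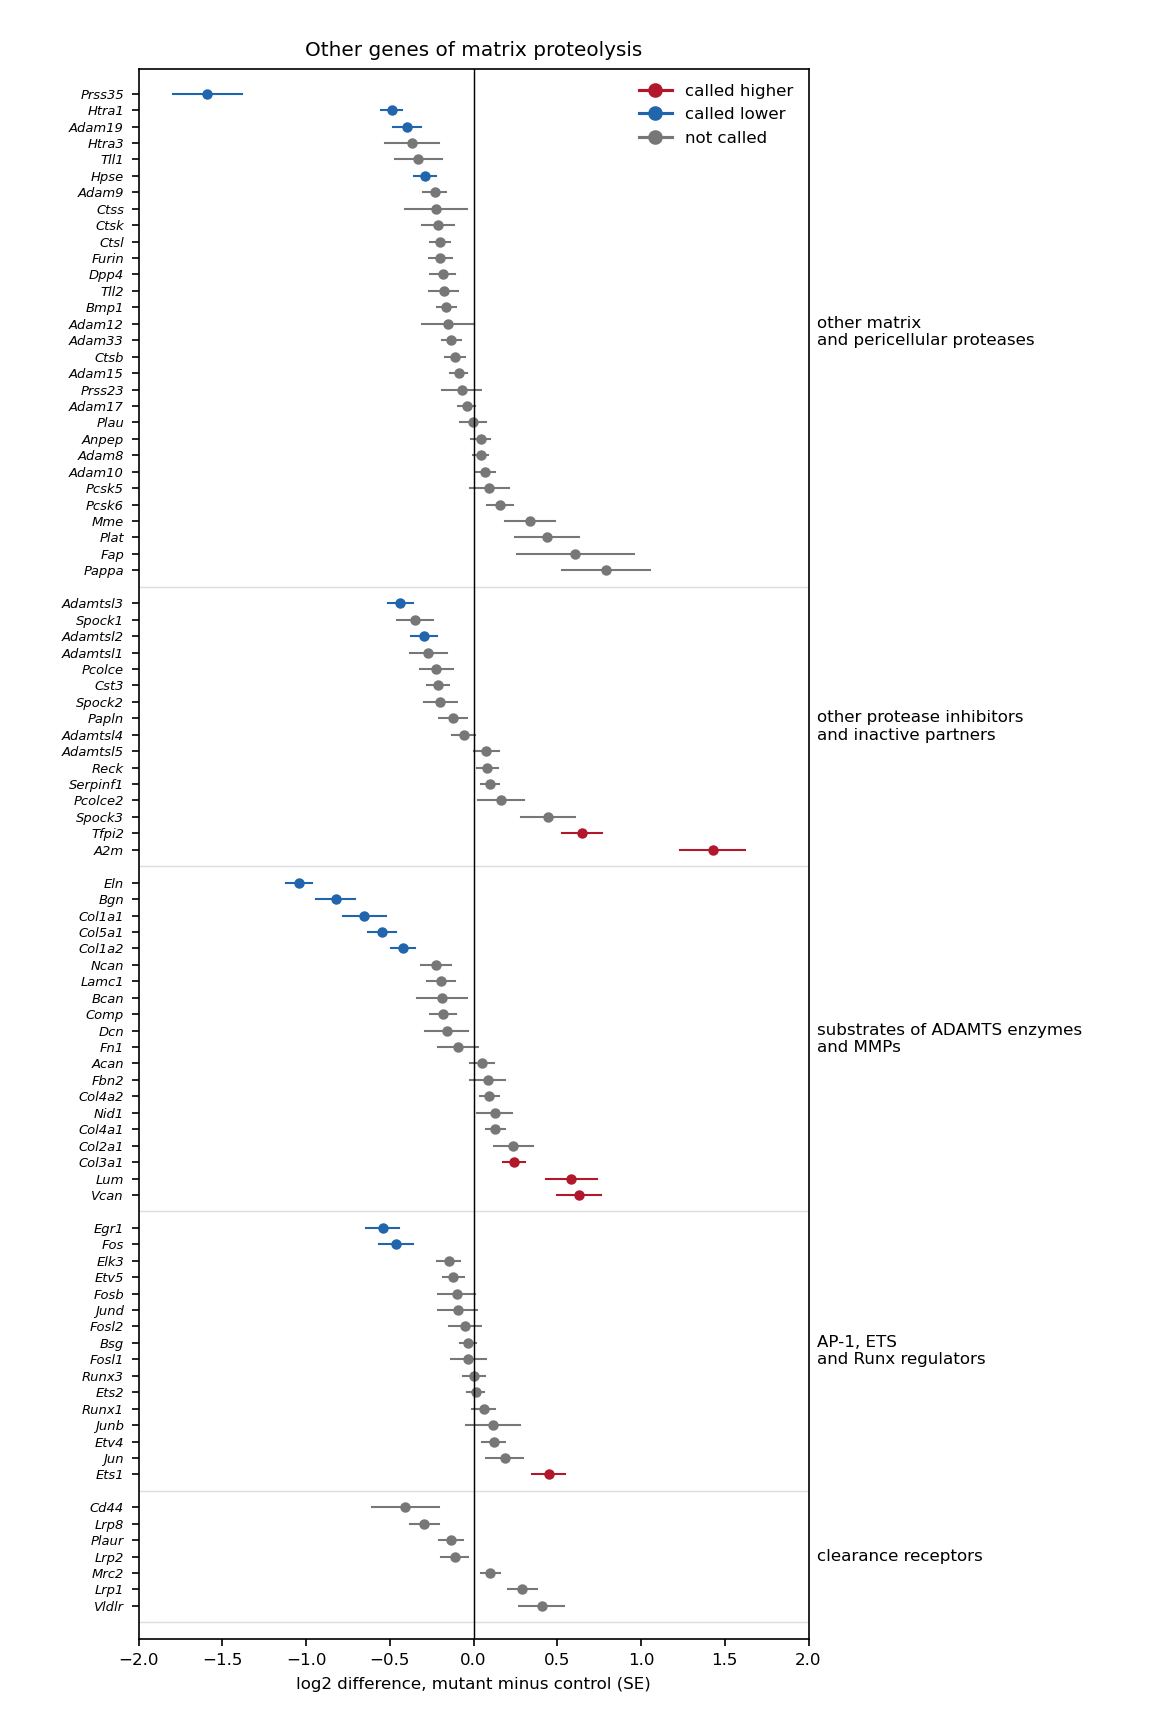
The log2 difference, mutant minus control, with its SE (x axis) for every measured gene of 5 lists of other genes of matrix proteolysis. Prss35 at −1.59 and A2m at 1.43 lie farthest from 0, and 0 of the 7 clearance receptors were called, beside 9.72% of all genes.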

How the data were processed

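The authors deposited log2 values per probe set of one-colour Affymetrix arrays. Per the submitters' processing notes the tool was RMA; no version or setting was found for it. RMA normalizes the arrays to each other, which can remove shifts common to many genes. Of 45101 probe sets 34945 named 1 gene in the platform annotation, 932 several, 9160 none and 64 were controls. Groups and numbers came from the sample titles.

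From these values mutant and control arrays were compared over 18193 genes with limma 3.58.1 in R 4.3.3 (lmFit, eBayes, two-sided, Benjamini-Hochberg, adjusted p of 0.05), without a filter on dim genes. Differences are mutant minus control on the log2 scale. The members and gene lists were chosen with earlier results of these data known. Named with values are called members, the TIMPs, Mmp2, Mmp9, Mmp13, Mmp14, the 6 members not called with the largest difference, members whose groups did not overlap, and called genes of the other lists. Genes outside this rule were named after their values were seen. On simulated data for 18193 genes the fit called 81 of 100 genes given a log2 change of 0.5, 97 of 100 given a change of 1, and 10 unchanged genes. The number of arrays limits the precision.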

Additional observations from a re-analysis of the deposited data

Results flagged for a closer look

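In 4 of the 74 groups of 4 arrays formed by the members, 1 array lay far from the other 3 by Dixon's test, and chance flags about 1 group in 20. Adamts5 on mutant 3 was 8.15, below the 8.39 to 8.42 of the other mutants. Mmp23 on mutant 3 was 7.39, above the 7.04 to 7.07 of the other mutants and within the control range. Adamts16 on mutant 4 was 7.22, below the 7.31 to 7.32 of the others. Mmp20 on control 3 was 4.17, above the 3.81 to 3.86 of the other controls, at a low signal.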

How the results depend on the processing

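Adamts8 and Adamts5 kept their direction and call in all 16 alternatives, Adamts3 in 15, Timp1 in 14 and Timp2 in 7. These counts do not rank the genes, since Adamts8 and Timp1 have 1 probe set each. Averaging probe sets, the setting that ended the call of Adamts3, could not change their differences. All 8 leave-one-out fits called Adamts3, Adamts5, Adamts8 and Timp1. With the replicate block, which treats same-numbered arrays as a pair, Timp1 (adjusted p = 0.0796) and Timp2 (0.147) did not pass, 1 member was called higher, Adam19, Hpse, Adamtsl2, Tfpi2, Ets1, Fos and Col3a1 lost their calls, and 637 genes were called lower and 329 higher against 1004 and 764. Same-numbered arrays deviated from their group means with correlations of −0.40, 0.02, −0.18 and −0.16, so the numbers were not taken to pair the buds. Also 1 member was called higher when each gene's probe sets were averaged, and 1 without controls 1 and 3, where 481 of all genes were higher. Over the leave-one-out fits 428 to 623 genes were called higher. Centring the arrays, leaving out dim genes, and eBayes with trend and robust each added Mmp16, as did leaving out control 2 or mutant 3. Leaving out control 4 added Timp3. The cause of these changes was not tested, and no called member turned its sign. Signal near the lowest values limits what can be said of the genes classed as interstitial collagenases.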
